A study of Homo sapiens with 18 samples.

Results

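SPP1 encodes osteopontin, a secreted acidic phosphoprotein, and its RNA was followed across RNA sequencing of lung adenocarcinoma cells in which the level of RAD21 had been changed. The gene was taken by its symbol from both count tables and is 1 of the 58735 genes counted. It was selected on its CPM and fold changes in these libraries, above all its opposite differences after RAD21 knockdown in the lines A549 and H358. Its own levels and fold changes are therefore given as a description, with no test, and tests are given for other genes. The groups were A549 shRAD21 and H358 shRAD21, which carry a lentiviral short hairpin RNA against RAD21, and A549 RAD21OE, which overexpresses RAD21. Their controls, all described as carrying empty vectors and labelled wild type, were A549 shNC, H358 shNC and A549 EV. There were 3 libraries to a group and 18 over the 6 groups. A549 and H358 are established human lung adenocarcinoma lines. Knockdown and overexpression were labelled as separate batches, so levels are compared only within each. The sources do not give the number of hairpins. Nothing in the labels makes the replicates separate cultures, so spread and p-values refer to these libraries and may be technical. RAD21 is the kleisin subunit of cohesin, the ring complex that extrudes chromatin loops and holds sister chromatids together.

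Osteopontin belongs to the SIBLING family, small integrin-binding ligand N-linked glycoproteins of bone and tooth matrix, whose genes lie in a cluster on chromosome 4. The protein carries an RGD motif and a neighbouring cryptic motif through which it binds integrins, and it also binds CD44. Thrombin and matrix metalloproteinases cut it, FAM20C phosphorylates it and transglutaminase 2 crosslinks it. In lung adenocarcinoma it is made by tumour cells and by tumour macrophages and has long been studied as a marker of invasion.

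SPP1 (ENSG00000118785) lies on the plus strand of chromosome 4, from 87975650 to 87983426 in hg38, with 2321 bases of merged exon. No base of its exons overlaps another gene on either strand (0% each), so unstated strandedness does not blur its counts. The stretch before the first annotated exon is shown because it is the regulatory sequence next to the gene whose RNA is described. It spans chr4:87975464-87975649 on the plus strand and is credited to the RefSeq promoter table of GRCh38.p14. Capitals mark the letters of the RUNX and ETS matches.
SPP1: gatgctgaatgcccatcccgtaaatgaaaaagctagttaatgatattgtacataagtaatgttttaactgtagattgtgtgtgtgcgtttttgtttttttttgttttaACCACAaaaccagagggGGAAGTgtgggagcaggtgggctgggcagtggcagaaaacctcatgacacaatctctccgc
The 300 bases around the RefSeq start, at 87975714, were searched on both strands for 9 short motifs. The RUNX letters TGTGGT matched once, on the minus strand at -142 to -137 from that start, and are found in 13.1% of 27305 promoters of the same length. The ETS letters GGAAGT matched once, at -125 to -120, and are found in 23.2%. The letters TTTAAA, an AT-rich variant of the TATA box, matched at -30 to -25, outside the printed stretch, and are found in 12.3%. No match overlapped another. The AP-1 letters TGANTCA (7.76% of promoters), the SP1 letters GGGCGG (44.6%), the E-box CACGTG (7.43%), the TCF/LEF letters CTTTGAT (2.64%), the POU letters ATGCAAAT (1.8%) and TATAAA (12%) did not occur in this window. A match of this kind is a string of letters and not a shown binding site.

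The 12 knockdown libraries held between 15155077 and 19277568 counts and the 6 overexpression libraries between 13024640 and 14276335. Levels are CPM (counts scaled to a common library size), with library sizes scaled by TMM factors, and tests are edgeR's quasi-likelihood F-test with p adjusted over all genes tested (Benjamini-Hochberg, threshold 0.05). RAD21 followed the labels in every library. It had 128.9, 131.8 and 101.1 CPM in A549 shRAD21 against 256.9, 252.9 and 254.6 CPM in A549 shNC, and 378.8, 427.0 and 432.6 CPM in H358 shRAD21 against 568.8, 588.8 and 602.8 CPM in H358 shNC. With overexpression it had 1520, 1501 and 1306 CPM in RAD21OE against 195.3, 208.6 and 194.4 CPM in EV. Genes on the opposite strand (RAD21-AS1 and UTP23) cover 14.2% of the RAD21 exons, and MIR3610 on the same strand 1.18%. Each difference passed the test (adjusted p = 2.99e-08, 0.000671 and 2.9e-10 in that order). Replicate 3 stood apart from its group in A549 shRAD21 (median absolute log2 difference over genes 0.313 and 0.304 to the other replicates) and in RAD21OE (0.269 and 0.231), while other replicate pairs differed by at most 0.146. All 4 epithelial markers examined (EPCAM, KRT8, KRT18, CDH1) were above 1 CPM in every group. Of 6 macrophage markers, CD14 alone reached 1 CPM, C1QA and C1QB were at 0 in every group, and the summed level of the 6 lay between 1.23 and 9.25 CPM. The 4 fibroblast markers summed to between 24.5 and 42.4 CPM, most of it COL1A1.

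After RAD21 knockdown in A549, SPP1 RNA lay well above its control level. It had 527.7, 520.9 and 427.4 CPM in the shRAD21 libraries 1, 2 and 3, against 237.1, 228.7 and 225.8 CPM in the shNC libraries. All 3 knockdown libraries were above all 3 controls, which held for 32.7% of the genes tested when either direction is counted. The means were 492.0 ± 56.0 CPM in shRAD21 and 230.5 ± 5.87 CPM in shNC (SD, n = 3 each), a ratio of 2.13 and a log2 fold change of 1.09 (SE 0.0854). The shRAD21 library with the least RAD21, replicate 3, also had the least SPP1, 185% of the control mean against 229% and 226% in replicates 1 and 2. Without that library the log2 fold change was 1.19. The summed epithelial markers were also higher, between 11300 and 14000 CPM in shRAD21 against 7120 to 7540 CPM in shNC, and each of the 4 was called higher. The summed macrophage markers lay at 2.86 to 3.67 CPM in shRAD21 against 4.11 to 5.18 CPM in shNC. The part of these shifts in the SPP1 difference was not tested.

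After RAD21 knockdown in H358 the difference ran the other way and was larger on the log2 scale. SPP1 had 31.53, 26.29 and 28.48 CPM in H358 shRAD21 against 126.1, 107.9 and 109.4 CPM in H358 shNC, so the knockdown libraries all lay below the controls (36.1% of genes tested did not overlap in this comparison). The means were 28.77 ± 2.63 CPM in shRAD21 and 114.4 ± 10.1 CPM in shNC (SD, n = 3 each), 25.1% of control and a log2 fold change of -1.99 (SE 0.0935). The lowest SPP1 count of a library was 455 reads in shRAD21 and 1828 in shNC. The summed epithelial markers lay at 3350 to 3440 CPM in shRAD21 against 3070 to 3260 CPM in shNC. Keratin RNA made up most of this sum: CDH1 was called higher (log2 fold change 0.25, adjusted p = 0.0341), and EPCAM, not called, averaged 474.9 CPM in shRAD21 against 539.5 CPM in shNC. The summed macrophage markers lay at 1.23 to 2.31 CPM in shRAD21 against 2.44 to 2.45 CPM in shNC, and the part of these markers in the SPP1 difference was not tested. In bulk RNA, fewer cells that make a transcript and less of it per cell cannot be told apart. RAD21 itself fell less in H358 than in A549 (difference of the log2 fold changes 0.57, SE 0.12, adjusted p = 0.00228), with log2 fold changes of -0.51 in H358 and -1.08 in A549. On the log2 scale, the larger SPP1 difference was thus in the line with the weaker RAD21 depletion. In CPM both orders were reversed, with the SPP1 means further apart in A549 and the RAD21 means further apart in H358.

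The SPP1 fold change in H358 minus that in A549 was -3.09 on the log2 scale (SE 0.13). The control groups of the lines lay closer, with the H358 shNC mean at 49.6% of the A549 shNC mean (log2 difference -1.01, SE 0.0865). Differences between these controls were common, with 7414 of 18939 genes tested called higher in H358 shNC than in A549 shNC and 6978 lower. Between the knockdown groups, the H358 shRAD21 mean was 5.85% of the A549 shRAD21 mean. From high to low the order of levels was A549 shRAD21, A549 shNC, H358 shNC and H358 shRAD21. Per kilobase of exon the group means were 212.0, 99.33, 49.3 and 12.4 CPM in that order. On this length-corrected scale SPP1 ranked 130th, 311th, 647th and 3566th among 18939 genes tested. Genes called in opposite directions made up small shares. These shares are limited by the genes called at all, 25.2% in A549 and 8.4% in H358. Whether they were rarer or more common than those calls would give was not tested. Of those 18939 genes, 169 (0.892%) were called higher in A549 and lower in H358 after knockdown at an adjusted p under 0.05, and 92 (0.486%) the other way round. With at least a 2-fold difference in each line as well, the counts were 3 (0.0158%) and 12 (0.0634%). The 3 were SPP1, DTX4 and GUCY1B1, listed after the values were seen. SPP1 was selected on these opposite differences and was not left out of the counts. Its place among the 169 and the 3 follows from that choice and is no test of SPP1. Among all 18939 genes tested, the SPP1 fold change ranked 55 from the lowest in H358 and 1008 from the highest in A549. Among genes with a mean of at least 4 CPM, it ranked 2 from the lowest of 12127 in H358 and 226 from the highest of 11776 in A549.

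**Figure D1:**
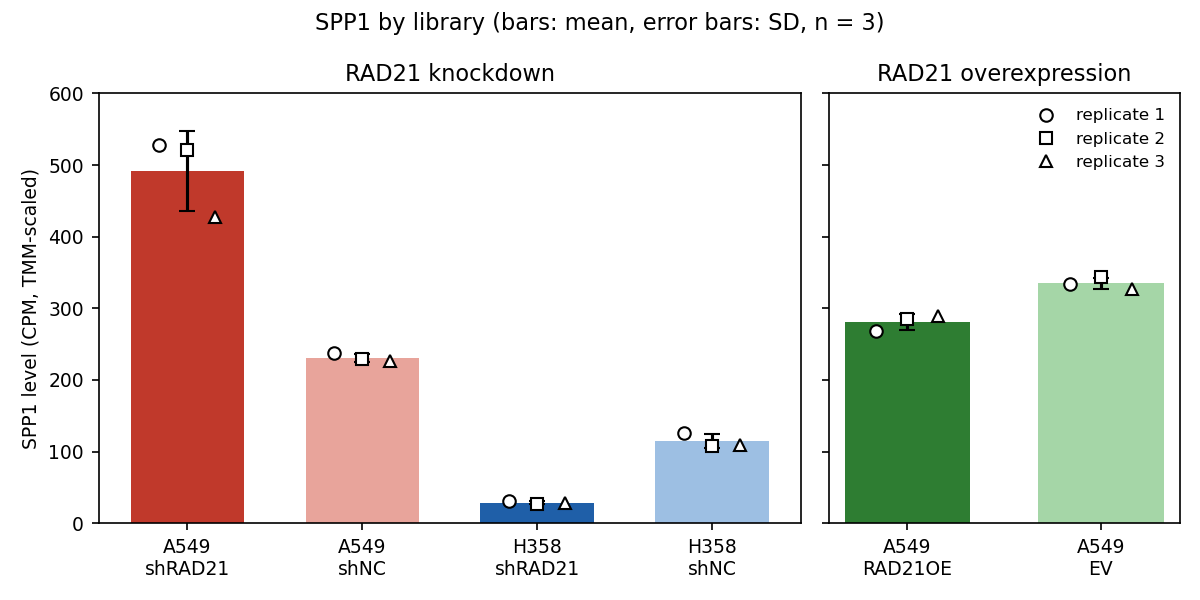
SPP1 level in CPM for each library (points, shaped by replicate number), with bars for the mean and error bars for the SD of 3 libraries, in the knockdown (left panel) and overexpression (right panel) batches. The A549 shRAD21 libraries lie between 427.4 and 527.7 CPM, above the A549 shNC libraries, and the H358 shRAD21 libraries between 26.29 and 31.53 CPM, below the H358 shNC libraries.

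With RAD21 overexpression in A549, SPP1 was slightly lower. It had 268.2, 285.1 and 288.7 CPM in RAD21OE against 334.4, 343.2 and 327.6 CPM in EV. The groups did not overlap, as for 45.4% of the genes tested in this batch. The means were 280.7 ± 10.9 CPM in RAD21OE and 335.0 ± 7.8 CPM in EV (SD, n = 3 each), 83.8% of control and a log2 fold change of -0.26 (SE 0.0712). In A549, then, SPP1 was above its control with less RAD21 and below it with more, although RAD21 itself was 7.23-fold its EV level. The rank of SPP1 from the lowest was 4311 of 15462 genes tested and 2573 of 11704 with a mean of at least 4 CPM. The summed epithelial markers were 10300 to 13500 CPM in RAD21OE against 8200 to 8400 CPM in EV. That sum was carried by KRT8 and KRT18, while CDH1 was called lower, with 52.89 CPM in RAD21OE against 68.07 CPM in EV (log2 fold change -0.36, adjusted p = 0.0322), and EPCAM, not called, had -0.29. The summed macrophage markers were 4.03 to 6.33 CPM in RAD21OE against 7.71 to 9.25 CPM in EV, and the part of these markers was not tested. The value shrank to -0.16 when trends of each library on GC content and exon length were removed. The GC content of SPP1 over its annotated transcripts was 43.4%, against a median of 49.1% over the genes tested in the knockdown batch. Across genes, a library's deviation from its group correlated with GC content with a Spearman's rho of -0.572, -0.388 and 0.68 in the RAD21OE libraries 1, 2 and 3, against 0.0937, -0.176 and 0.122 in EV. The A549 shRAD21 libraries of the knockdown batch had a like spread, with -0.457, -0.412 and 0.597. These are deviations within a group and do not measure a shift between groups.

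**Figure D2:**
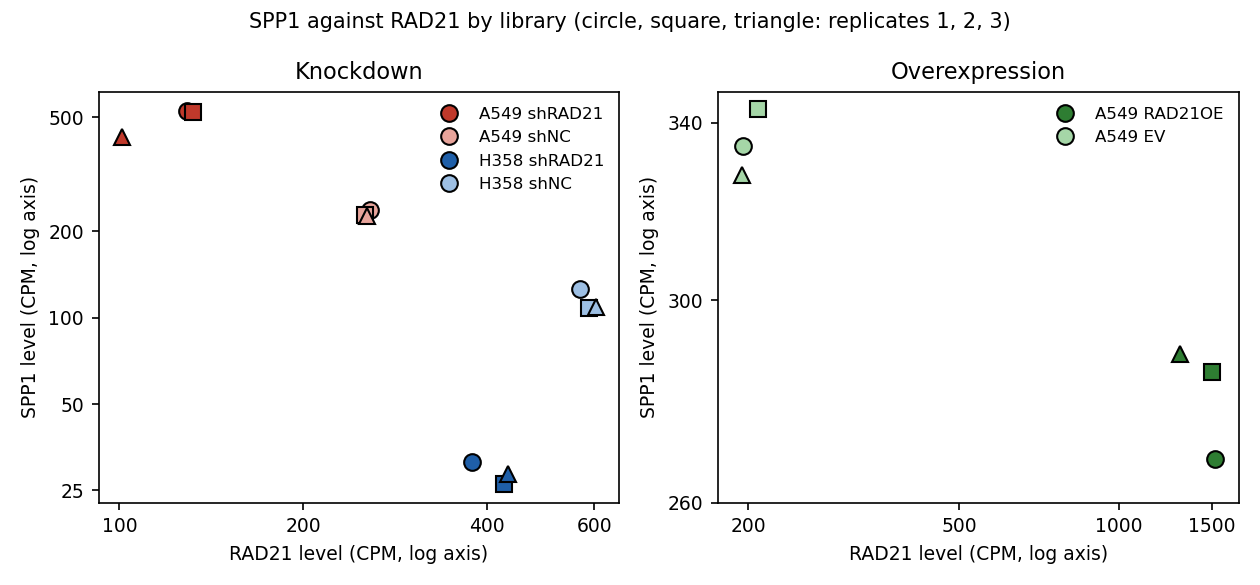
RAD21 level (x axis) against SPP1 level (y axis) for each library, both in CPM on log axes, with knockdown on the left and overexpression on the right. Within A549 the shRAD21 libraries have less RAD21 and more SPP1 than shNC and the RAD21OE libraries more RAD21 and less SPP1 than EV, whereas within H358 the shRAD21 libraries have less of both than shNC.

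The genes whose pattern most resembled that of SPP1 were found by Pearson's correlation of log2 CPM among protein-coding genes with a mean of at least 4 CPM. Over the 12 knockdown libraries, and among 11599 genes, they were MCFD2 (r = 0.988), DTX4 (0.983), ID1 (0.982), GPX8 (0.982) and ELF3 (0.97). DTX4, which encodes an E3 ubiquitin ligase of the Deltex family, had log2 fold changes of 1.13 in A549, near that of SPP1, and -1.20 in H358, smaller than that of SPP1. MCFD2, an adaptor of the ER cargo receptor for clotting factors, had 0.20 in A549 and -0.32 in H358. Over the 6 H358 libraries alone, and among 11168 genes, they were CARD19 (0.999), POMGNT1 (0.999), PRSS23 (0.999), CD55 (0.998) and RPL4 (0.998). CD55, a complement inhibitor on the cell surface, had a log2 fold change of -0.94 in H358 and also a negative one in A549, -1.16. The libraries behind each correlation share a line or a treatment, so a gene that differs between the same groups scores high whatever its size of change.

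The other SIBLING genes, IBSP (bone sialoprotein), DMP1 (dentin matrix protein), DSPP (dentin sialophosphoprotein) and MEPE (matrix extracellular phosphoglycoprotein), were near or at 0, and none of the 4 passed the filter on low counts. None had a single read in the A549 knockdown batch, where 3 reads over a group would correspond to 0.0575 CPM in shRAD21 and 0.0613 CPM in shNC on the total count. In the overexpression batch no group had more than 1 read of any of them. H358 had a few reads. IBSP had 12 over the 3 shRAD21 libraries against 21 over the 3 shNC libraries, DMP1 2 against 14, DSPP 7 against 9 and MEPE 4 against 8. These counts were not tested.

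Of the genes beside SPP1, those that were called moved in both directions. Within 500 kb there were 23 other genes, 10 of them protein-coding, and 8 passed the filter in the knockdown batch and 6 in the overexpression batch. After knockdown in A549, 3 of the 8 rose and 1 fell, beside 14.4% of all genes tested called higher and 10.9% lower (25.2% together). The median log2 fold change was 0.054 against 0.0045 over all genes. That count and median include AC093895.1, an antisense gene, and SPARCL1, which passed the shared filter through their H358 levels. AC093895.1 had 0.0 CPM in both A549 groups, so it could not be called there. PKD2, the calcium-permeable channel polycystin-2, begins 24.2 kb downstream and rose to 95.48, 99.37 and 79.81 CPM in shRAD21, against 65.27, 68.58 and 72.27 CPM in shNC (log2 fold change 0.42, SE 0.0863, adjusted p = 0.00154). ABCG2, a drug efflux transporter 106.8 kb away, fell to 47.4, 43.31 and 41.57 CPM in shRAD21, against 112.8, 113.2 and 117.9 CPM in shNC (log2 fold change -1.38, SE 0.0882, adjusted p = 2.7e-09). PPM1K, a mitochondrial phosphatase of branched-chain amino acid breakdown, rose at a low level, to a mean of 4.363 CPM in shRAD21 against 0.9872 CPM in shNC (log2 fold change 2.13, SE 0.23). HERC6, an interferon-induced HECT-type ligase gene, had 0.74 (SE 0.11, adjusted p = 5.04e-05), and its neighbour HERC5, the ligase for ISG15, had -0.012 and did not pass the test. SPARCL1, a matricellular relative of SPARC, averaged 0.06505 CPM in A549 shRAD21 against 0.1115 CPM in A549 shNC.

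In H358, 1 of the same 8 genes was called, HERC6, which rose. Of all genes tested 8.4% were called, 3.78% higher and 4.62% lower. The median of the 8 was -0.13 against 0.0 over all genes. HERC6 rose to 41.59, 38.42 and 43.96 CPM in shRAD21, against 27.48, 28.86 and 27.35 CPM in shNC (log2 0.57, SE 0.0899; adjusted p = 0.000638). PKD2 had -0.06 (SE 0.0895), ABCG2 -0.12 (SE 0.13) and PPM1K -0.17 (SE 0.13), beside -1.99 for SPP1. By the test between the lines, where 17.6% of all genes were called (7.61% higher and 9.94% lower), PKD2 differed by -0.47 (SE 0.12, adjusted p = 0.0135), PPM1K by -2.31 (SE 0.27, adjusted p = 1.01e-05) and ABCG2 by 1.26 (SE 0.16, adjusted p = 2e-05), each as H358 minus A549. The call of PKD2 was lost without H358 shNC replicate 3 and without H358 shRAD21 replicate 1, with an adjusted p of up to 0.056. With overexpression, where 27.8% of genes were called (14.1% higher and 13.7% lower), ABCG2 rose (0.37, SE 0.0864, adjusted p = 0.00763) and HERC6 fell (-0.65, SE 0.15, adjusted p = 0.00762), while PKD2 had -0.19 (SE 0.10) and did not pass. The call of ABCG2 was lost without EV replicate 3 (adjusted p = 0.0525) and that of HERC6 without EV replicate 2 (adjusted p = 0.0516).

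**Figure D3:**
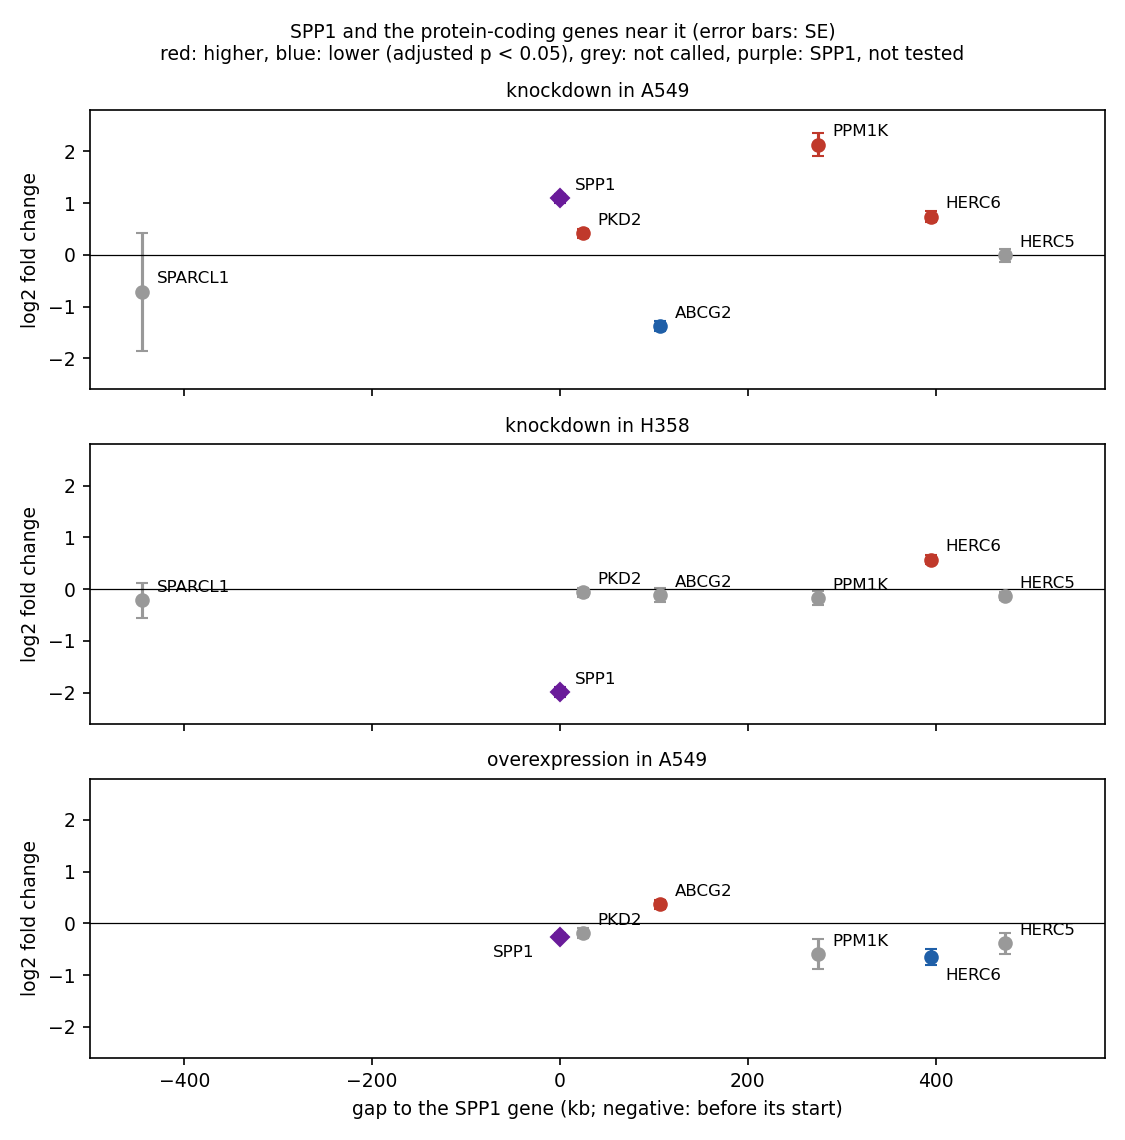
Log2 fold change (y axis, error bars SE) of SPP1 and of the protein-coding genes within 500 kb that passed the filter, by their distance from SPP1 in kb (x axis), in 3 comparisons. In H358 the points beside SPP1 (-1.99) lie near 0 apart from HERC6 (0.57), and in A549 PKD2 (0.42), HERC6 (0.74) and PPM1K (2.13) lie above 0 and ABCG2 (-1.38) below. SPARCL1 (-0.71, SE 1.14, not called) also lies below 0 in A549, at a level near 0 CPM.

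Receptors of osteopontin changed in different directions within one list. Of 11, 9 passed the filter. After knockdown in A549, 2 rose and 3 fell (median log2 fold change -0.089), beside 14.4% of all genes tested called higher and 10.9% lower. ITGB6, the beta chain of the RGD-binding integrin alpha-v beta-6 of epithelia, rose to 23.36, 19.56 and 16.22 CPM in shRAD21, against 6.283, 4.751 and 6.518 CPM in shNC (log2 fold change 1.75, SE 0.14, adjusted p = 3.07e-08). CD44, the hyaluronan receptor that also binds osteopontin, rose to 448.9, 426.3 and 380.7 CPM in shRAD21, against 305.0, 302.5 and 308.5 CPM in shNC (0.46, SE 0.0637). The remaining calls were falls. ITGB5, whose chain pairs with alpha-v, had -1.25 (SE 0.0737), the alpha-v gene ITGAV had -0.70 (SE 0.10), and ITGA5, of the fibronectin receptor, had -0.41 (SE 0.10, adjusted p = 0.00636). By the test between the lines (H358 minus A549), ITGB5 differed by 0.90 (adjusted p = 1.01e-05), ITGAV by 0.64 (adjusted p = 0.00404), ITGA5 by 0.68 (adjusted p = 0.012) and CD44 by -0.32 (adjusted p = 0.0243, lost in 14 of 20 alternatives and up to 0.0918, among them leaving out any 1 library except A549 shNC replicate 3 or A549 shRAD21 replicate 3).

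In H358, 4 of the 9 receptors were called, each of them lower, beside 4.62% of all genes called lower (median -0.33 against 0.0 over all genes). ITGB6 fell to 55.72, 54.43 and 54.45 CPM in shRAD21, against 95.7, 87.72 and 93.35 CPM in shNC (log2 fold change -0.75, SE 0.10, adjusted p = 0.000155). ITGB1, the most shared beta chain, had -0.33 (SE 0.078, adjusted p = 0.0118), ITGB5 -0.36 (SE 0.0735, adjusted p = 0.00511) and ITGB3 -1.82 (SE 0.39, adjusted p = 0.00622), the last at 0.6098 CPM in shRAD21 against 2.163 CPM in shNC. The call of ITGB1 was lost without H358 shRAD21 replicate 1 (adjusted p = 0.0502) and that of ITGB5 without H358 shRAD21 replicate 2 (adjusted p = 0.0509). With overexpression, 9 receptors again passed the filter, with ITGA8 in place of ITGB7, and 6 fell and 1 rose, beside 13.7% of all genes called lower and 14.1% higher (median -0.54 against -0.015 over all genes). ITGB6 fell to 3.25, 2.698 and 1.674 CPM in RAD21OE, against 8.689, 4.625 and 6.978 CPM in EV (log2 fold change -1.41, SE 0.27, adjusted p = 0.00231). ITGB1 had -0.63 (SE 0.0724) and ITGAV -0.54 (SE 0.12), while CD44 had -0.24 (SE 0.0698), ITGA5 -0.42 (SE 0.11) and ITGB3 -0.97 (SE 0.30). These last 3 calls were lost without EV replicate 1 or 2, and those of CD44 and ITGB3 also without EV replicate 3 or RAD21OE replicate 2 and that of ITGB3 without RAD21OE replicate 3, with adjusted p of up to 0.108 for CD44, 0.0608 for ITGA5 and 0.113 for ITGB3. The call of ITGB3 was lost with DESeq2's Wald test as well. The 1 rise was ITGA8, which passed the filter only in this batch and at 1.232 CPM in RAD21OE against 0.1485 CPM in EV. Of the exon sequence of ITGB6 20.61%, and of ITGB3 51.57%, overlaps another gene on the same strand, so their counts are less certain.

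Among 9 proteins that cut, crosslink or modify osteopontin, TGM2, transglutaminase 2, moved as SPP1 did in each comparison. In A549 it rose to 305.0, 296.7 and 337.6 CPM in shRAD21, against 200.8, 197.9 and 203.4 CPM in shNC (log2 fold change 0.64, SE 0.0776, adjusted p = 6.16e-06). TGM2 fell in H358, to 269.3, 230.2 and 227.0 CPM in shRAD21, against 583.2, 521.0 and 494.3 CPM in shNC (-1.14, SE 0.0776, adjusted p = 1.87e-07). With overexpression it fell to 133.3, 138.4 and 170.3 CPM in RAD21OE, against 628.3, 605.6 and 605.0 CPM in EV (-2.06, SE 0.094, adjusted p = 2.76e-08). The groups did not overlap in any of these comparisons. The difference between the lines was -1.78 (H358 minus A549, SE 0.11, adjusted p = 1.13e-08) for TGM2 and -2.50 (SE 0.17, adjusted p = 2.59e-08) for ITGB6. Of 15306 genes tested in both batches, 34 (0.222%) were called in these 3 directions, TGM2 and ITGB6 among them. SPP1 was not left out of the genes counted. TGM2 made up all the calls of its list in the knockdowns, 1 of 6 members that passed the filter in each line, beside 25.2% of all genes called in A549 and 8.4% in H358 (median -0.25 in A549 and -0.0016 in H358). Some of the 6 lay near 0 in a line. Examples are F2 in H358 (0.1126 CPM in shRAD21 against 0.07293 CPM in shNC) and MMP9 in A549 (0.08311 against 0.2224 CPM). With overexpression 2 of 4 fell and 1 rose, beside 13.7% of all genes lower and 14.1% higher (median -0.45). F2, prothrombin, fell at a low level, with 3.016 CPM in RAD21OE against 6.588 CPM in EV (-1.13, SE 0.18), and FAM20C, the secretory pathway kinase, rose (0.36, SE 0.0925, adjusted p = 0.0121; lost when any 1 EV library was left out, up to 0.0618). The remaining members were not called or did not pass the filter.

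Transcription factors reported at the SPP1 promoter in human or rodent cells were also examined. After knockdown in each line and with overexpression they were called about as often as all genes were. Those counts are therefore no result about the list. Of 18, 17 passed the filter in the knockdown batch and 16 in the overexpression batch. In A549, 2 of 17 rose and 3 fell, beside 25.2% of all genes called (median -0.029). VDR, the vitamin D receptor, rose to 12.89 CPM in shRAD21 against 4.873 CPM in shNC (log2 fold change 1.39, SE 0.15, adjusted p = 1.09e-06), and MYB rose at a low level, with 1.52 CPM in shRAD21 against 0.2867 CPM in shNC (2.39, SE 0.39). The ETS factors ETV4, an effector of ERK signalling, and ETS1 fell, with -1.96 (SE 0.10, adjusted p = 1.26e-10) and -0.77 (SE 0.0748, adjusted p = 4.89e-07), and so did the Hedgehog effector GLI1 (-1.46, SE 0.13). In H358, 1 of 17 rose and 1 fell, beside 8.4% of all genes called (median 0.015). The 17 include GLI1 (0.09596 CPM in H358 shRAD21 against 0.0185 CPM in H358 shNC) and HOXC8 (0.0 against 0.01995 CPM). Both passed the filter through A549 and were too low to judge in H358. VDR rose (0.46, SE 0.11, adjusted p = 0.017) and SP1, a ubiquitous GC-box factor, fell (-0.25, SE 0.069, adjusted p = 0.0286). Either call was lost with the replicate number as a block and without some single libraries of that line, for SP1 any of the 6 and for VDR any except shNC replicate 2, with adjusted p of up to 0.106 and 0.0969. ETV4 had -0.27 (SE 0.0918) and ETS1 -0.02 (SE 0.0648) in H358 and did not pass. RUNX2, the osteoblast factor of the RUNX family, had 48.91 CPM in H358 shRAD21 against 50.98 CPM in H358 shNC and 0.8254 CPM in A549 shRAD21 against 1.024 CPM in A549 shNC, and was called in neither line.

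By the test between the lines (H358 minus A549), 2 of 17 factors were called higher and 3 lower, beside 7.61% and 9.94% of all genes. These counts were not tested against those shares. ETV4 differed by 1.69 (SE 0.13, adjusted p = 1.05e-07) and ETS1 by 0.74 (SE 0.10), opposite in sign to SPP1, whereas VDR (-0.94, SE 0.19), SP1 (-0.40, SE 0.10) and MYB (-2.06, SE 0.44) had the sign of SPP1. Within H358, however, VDR (0.46) and MYB (0.33, not called) had positive fold changes, where that of SPP1 was negative. With overexpression 3 of 16 factors rose and 1 fell, beside 27.8% of all genes called. ETV4 had 0.44 (SE 0.10, adjusted p = 0.0079), ETS1 0.33 (SE 0.11, adjusted p = 0.0412) and MYC 0.31 (SE 0.0925, adjusted p = 0.0258), and RUNX2 had -0.72 (SE 0.25, adjusted p = 0.0479). The call of ETV4 was lost without EV replicate 3 (adjusted p = 0.0546) and that of MYC without EV replicate 1 or 2 (up to 0.127). ETS1 lost its call without replicate 1 or 2 of either group (up to 0.174) and with a filter of 10 CPM in 3 libraries. RUNX2 lost its call when any 1 library except RAD21OE replicate 3 was left out (up to 0.178). It also lost it with DESeq2's Wald test, with limma-voom and with no filter on low counts.

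**Figure D4:**
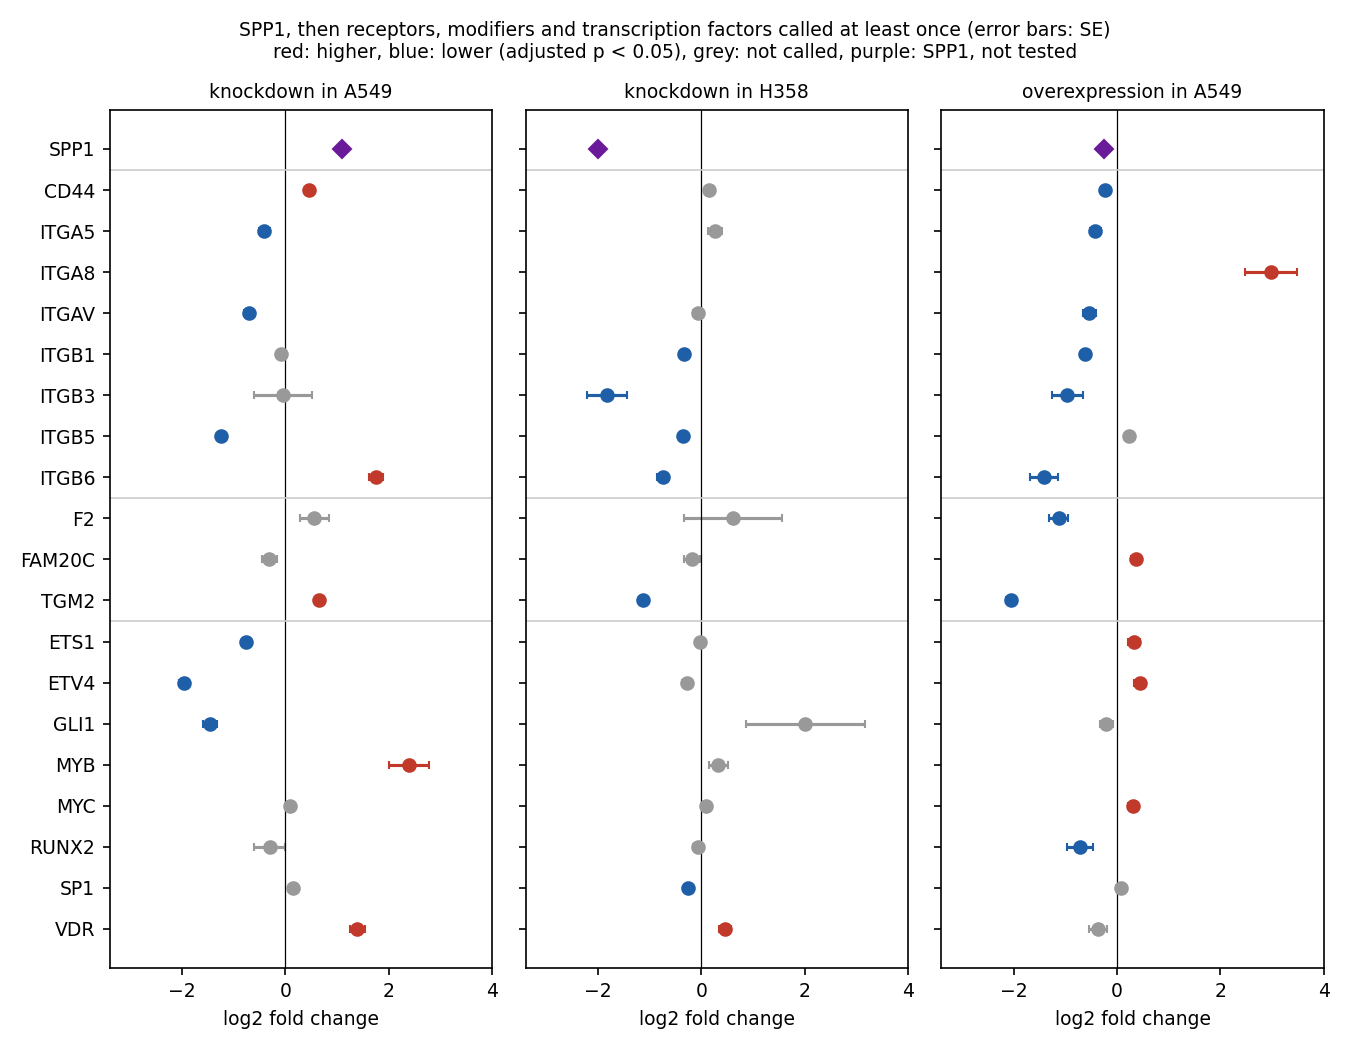
Log2 fold change (x axis, error bars SE) of SPP1 and of the receptors, modifying proteins and transcription factors called in at least 1 of 3 comparisons (panels); a gene without a point did not pass the filter in that batch. TGM2 and ITGB6 lie on the same side of 0 as SPP1 in every panel, at 0.64 and 1.75 in A549 knockdown, -1.14 and -0.75 in H358 knockdown and -2.06 and -1.41 with overexpression.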

How the data were processed

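The authors deposited raw counts of reads per gene in 2 tables, for the 12 knockdown and the 6 overexpression libraries. Named in the submitters' processing notes, with no role or order, are hg38, featureCounts 1.5.0-p3, HISAT2 2.0.5 and fastp. All 58735 genes have the coordinates of GENCODE release 29. The 2 tables have 0 count columns without a sample. The exon length of each gene is given beside the counts, per the file headers. GC content was available for 58676 genes.

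Each table was fitted on its own in R 4.3.3 with edgeR 4.0.16 (filterByExpr, TMM, 1 mean per group) by its two-sided quasi-likelihood test. The p-values were adjusted by Benjamini and Hochberg's method across 18939 genes for knockdown or 15462 for overexpression, and a gene rose or fell at an adjusted p under 0.05. The knockdown filter took both lines together, so a gene low in A549 or H358 could pass through its level in the other line. Such genes stayed in the counts and medians. SE is the log2 fold change divided by the root of F. Alternatives used DESeq2 1.42.0, limma 3.58.1, other filters, GC and length offsets, a replicate block, and left-out libraries. The fit was tested on simulated data. For genes at 0, 3 reads over a group is the floor, which covers counting error only.

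SPP1 and the lists were chosen with earlier results of these data known. Named genes are all SIBLING genes, tested protein-coding genes within 500 kb, list members called at least once, and the 5 genes most correlated with SPP1 over 12 and over 6 libraries; others named outside this rule (the 3 genes of opposite 2-fold difference and members not called) were added after their values were seen. Figures used Python 3.11.15 with matplotlib 3.10.9.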

Additional observations from a re-analysis of the deposited data

Results flagged for a closer look

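The SPP1 difference between the lines, -3.09 on the log2 scale (H358 minus A549), was singled out because every H358 shRAD21 library lay below the H358 shNC mean and every A549 shRAD21 library above the A549 shNC mean; it was not tested. The other results here were singled out because the fold change of knockdown differed between the lines by edgeR's test. On the log2 scale and as H358 minus A549, they were 0.57 for RAD21, 1.26 for ABCG2, -0.32 for CD44, 0.74 for ETS1, 1.69 for ETV4, 0.68 for ITGA5, 0.64 for ITGAV, 0.90 for ITGB5, -2.50 for ITGB6, -2.06 for MYB, -0.47 for PKD2, -2.31 for PPM1K, -0.40 for SP1, -1.78 for TGM2 and -0.94 for VDR. The difference of CD44 lost its call in 14 of 20 alternatives (adjusted p of up to 0.0918), among them every left-out library except A549 shNC replicate 3 and A549 shRAD21 replicate 3, and that of PKD2 in 2 of 20, without H358 shNC replicate 3 or H358 shRAD21 replicate 1 (up to 0.056).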

How the results depend on the processing

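The SPP1 log2 fold change lay between 1.01 and 1.19 in A549 over 15 alternatives and between -2.06 and -1.91 in H358 over 15, and the difference of the lines between -3.18 and -2.97 over 20, all within 1 SD of the main value. Leaving out a library gave -0.27 to -0.22 with overexpression and -1.10 to -0.98 for H358 shNC against A549 shNC. GC and length offsets moved these to -0.16 and -1.17, and with the replicate block as well to -0.16 and -1.18. Of 61 genes around SPP1 or of its lists, 40 passed the filter with knockdown and 35 with overexpression. Of these, 15 were called in A549, 8 in H358, 14 between the lines and 16 with overexpression, beside 25.2%, 8.4%, 17.6% and 27.8% of all genes. Leaving out a library gave 15 to 24, 5 to 7, 12 to 21 and 8 to 19 calls. The 24 and the 21 came without A549 shRAD21 replicate 3, the 5 without H358 shRAD21 replicate 1 or 2, and the 8 to 10 with overexpression without 1 of the EV libraries. Over all genes, 4780 calls in A549 became 8430 and 3325 between the lines became 7348 without A549 shRAD21 replicate 3, and 3066 in A549 with the line alone. In H358, 1591 became 755 to 874 without any 1 library of the line, 1038 with the block, 3418 with GC and length offsets (3124 with the block as well) and 4473 with the line alone. With overexpression, 4297 became 2177 to 2705 without 1 EV library. In H358 GC and length offsets gave 13 calls among 40 of these genes tested, and the libraries of the line alone 13 among 36. With overexpression a filter of 10 CPM in 3 libraries gave 10 among the 23 that passed it. The replicate numbers did not pair the samples (correlations of same-numbered deviations between -0.0369 and 0.0674, and not every library correlated best with its own number). The replicate block gave 16, 6, 13 and 18 calls and SPP1 values of 1.09 in A549, -1.99 in H358, -3.08 between the lines and -0.26 with overexpression. Between the lines, ESRRA and MYC, not called, were called with the opposite sign under GC and length offsets (-0.34 and -0.25; -0.33 and -0.25 with the block). The causes were not tested. Depth limits the SIBLING genes and list members under 1 CPM.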
